A study of Mus musculus with 4 samples.

Results

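MHC class I antigen presentation was followed through 10 genes in tdTomato-positive, *Hmx3*-derived cells of the mouse basal telencephalon at E16, with and without *Dnmt1*. The genes were chosen by symbol: the heavy chains *H2-K1*, *H2-D1* and *H2-T23*, the light chain *B2m*, the peptide transporter subunits *Tap1* and *Tap2*, the loading factor *Tapbp*, the transactivator *Nlrc5* and the immunoproteasome subunits *Psmb8* and *Psmb9*. All 10 were found among the 55573 gene identifiers of the count lists through GENCODE M21, and 8 of them were among the 16832 genes that passed the filter on low counts and were tested. *Psmb8* and *Psmb9* were counted too rarely to be tested. Of the 10 genes, *H2-K1* and *Tap2* were higher in the *Dnmt1* KO by an adjusted p under 0.05, *Tap1* missed that threshold with 1 and 3 counts in WT against 11 and 22 in KO, and *H2-D1*, the other classical heavy chain gene, was slightly lower in both KO libraries without passing the test.

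Class I molecules hold short peptides of the cell's own proteins at its surface, where CD8 T cells and natural killer cells read them. The proteasome cuts the peptides, the TAP transporter carries them into the endoplasmic reticulum, tapasin holds empty class I molecules at the transporter until a peptide is bound, and a heavy chain leaves for the surface only with its light chain. Interferon raises the whole route through NLRC5, IRF and STAT factors, and it exchanges catalytic subunits of the proteasome for immunoproteasome subunits. Neurons of the developing brain carry little class I, which has also been studied there as a signal in synapse refinement, while microglia and endothelial cells carry more. DNMT1 is the enzyme that copies DNA methylation onto newly made strands.

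The WT and KO embryos carried *Hmx3-Cre* and the tdTomato reporter, so that Cre acts, and cells are coloured, in *Hmx3*-expressing cells and their progeny. The labels name the line Hmx3-Cre/tdTomato/Dnmt1loxp for both genotypes and call the genotypes wild type and Dnmt1 knockout. The floxed allele came from the line B6;129S-Dnmt1tm4Jae/J, with LoxP sites around exons 4 and 5 of *Dnmt1*. The mice were kept on a C57BL/6J background. Stages were counted from insemination as E1. The labels name the whole basal telencephalon at E16 as the tissue from which cells were sorted, and the study's text names the preoptic area (POA). Cells were pooled from 12 WT and 6 KO embryos, and 2 libraries were made per genotype (WT 1, WT 2, KO 1, KO 2). The series' design text calls the libraries of a genotype biological replicates, and the study's methods call them technical duplicates of a pool, so SDs and p-values measure the spread between libraries, which may be technical.

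The libraries held between 8075102 and 9995968 counts, at which 3 counts are worth 0.293 to 0.371 CPM (on library sizes scaled by TMM). WT 1 stood apart, with 8.66% of its counts on mitochondrial rRNA against 1.51% to 2.32% in the other libraries. Over all genes, chi-square divided by its degrees of freedom was 65.4 for WT 1 against WT 2 and 4.57 for KO 1 against KO 2, so no library repeated another. *Dnmt1* itself had 3103 and 4557 counts in WT against 2383 and 2552 in KO. The difference was -0.56 ± 0.14 on the log2 scale (standard error, adjusted p = 0.0511), with both KO libraries below both WT libraries. It passed an adjusted p of 0.05 in 9 of 14 other fits (-0.67 to -0.46) and not in 5 (-0.55 to -0.46). These counts are for the whole gene, and reads on the deleted exons were not counted apart. *Hmx3* and the GABAergic genes *Gad1* and *Dlx1* were read in every library, with 604 to 919, 1066 to 1552 and 4680 to 6497 counts. All differences between genotypes below are from edgeR's quasi-likelihood test over the 16832 tested genes with Benjamini-Hochberg adjustment, given with their standard error.

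All members together took 302 and 417 counts in the WT libraries and 482 and 574 in the KO libraries, or 0.00337% and 0.00417% against 0.00597% and 0.00651% of all counts. Summed as CPM they stood at 37.4 and 40.7 in WT and at 57.1 and 63.0 in KO. Of the 8 tested members 2 were higher and 0 lower, while 7.33% of all tested genes were higher and 0.57% lower. Over all genes these were 1233 higher and 96 lower, a balance that moved when a WT library was left out: without WT 1 there were 2578 higher and 1300 lower genes, and without WT 2 2029 and 2180. An unadjusted p under 0.05 was reached by 3 of the 8, all with a positive log2 fold change, and by 22.7% of all tested genes. As with edgeR, 0 members were lower by DESeq2 or limma-voom. Both KO libraries lay above both WT libraries for 5 of them (*H2-K1*, *B2m*, *Tap1*, *Tap2*, *Tapbp*), as for 28.2% of all tested genes, and below for 1 (*H2-D1*), as for 25.3%. The median log2 fold change was 0.50 over the 8 tested members and -0.03 over all tested genes. *Tap1* and *Tap2* passed the filter only through their KO libraries and so had to differ, which is why neither these counts nor this median stand as evidence about the members as a group.

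**Figure D1:**
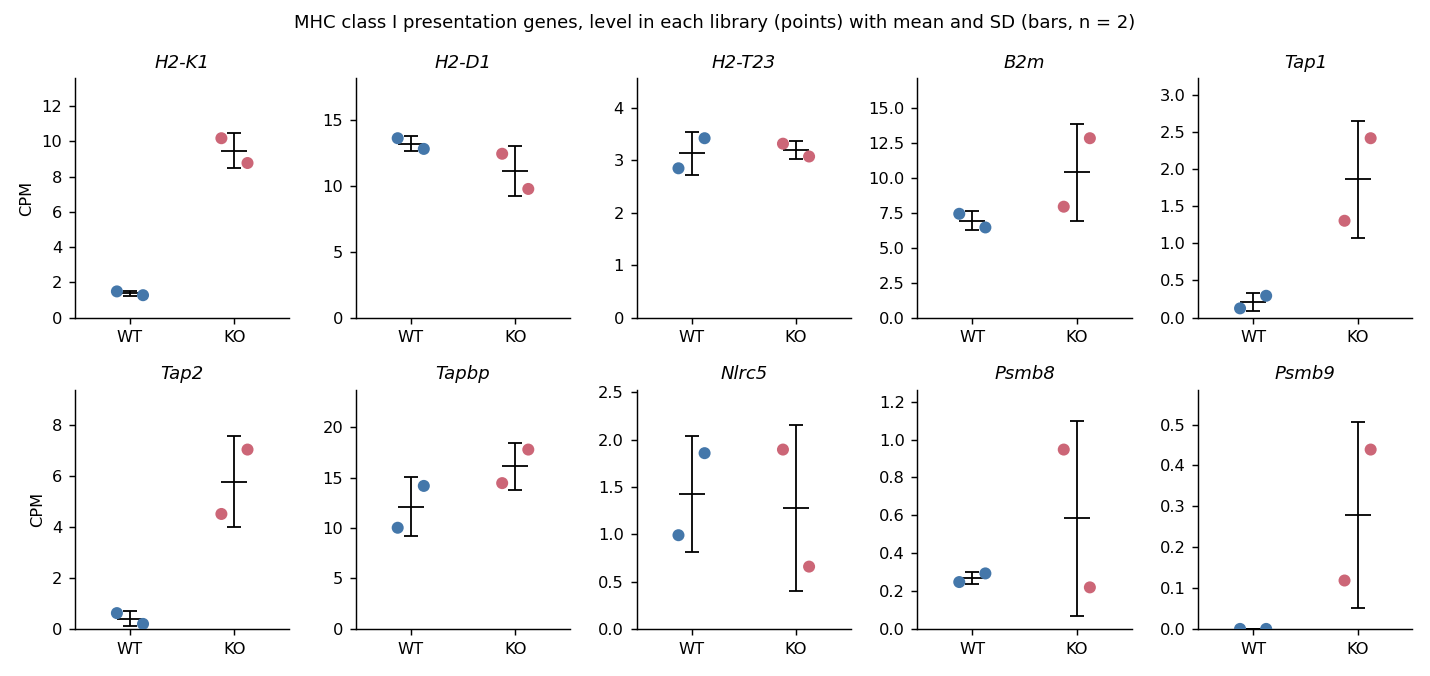
Level of each member in CPM (vertical axes, each from 0 with its own scale) in the 2 WT (blue) and 2 KO (red) libraries, with the mean and SD of each genotype as black bars. *H2-K1* and *Tap2* sit clearly higher in both KO libraries, at 8.77 to 10.2 and 4.50 to 7.02 CPM, whereas *H2-T23* and *Nlrc5* overlap between the genotypes.

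*H2-K1* encodes a classical heavy chain and lies on the minus strand of chromosome 17 (GRCm38, 33996017 to 34000347). It had 12 and 13 counts in WT against 86 and 80 in KO. In CPM these were 1.49 and 1.27 against 10.2 and 8.77, or 1.38 ± 0.152 (SD, n = 2) in WT and 9.48 ± 0.995 (SD, n = 2) in KO. The KO libraries lay several times above both WT libraries and close to each other. The log2 fold change was 2.78 ± 0.37 (adjusted p = 0.00256), and without WT 1 it was 2.88. Leaving out any other library gave values between 2.65 and 2.89, and *H2-K1* stayed under an adjusted p of 0.05 each time.

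*H2-D1* encodes the other classical heavy chain of this strain and lies on the same chromosome from 35262730 to 35267499, on the plus strand. It had 110 and 131 counts in WT against 105 and 89 in KO. Its level was 13.6 and 12.8 CPM in WT and 12.4 and 9.76 CPM in KO, so that both KO libraries were below both WT libraries, by little in KO 1. The log2 fold change was -0.25 ± 0.26 (adjusted p = 0.606), and it stayed negative without WT 1 (-0.21). *H2-K1* and *H2-D1* thus stood far apart in mean CPM in WT, at 1.38 and 13.2, and close together in KO, at 9.48 and 11.1.

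Within a library, the division of counts between the pair does not depend on library size. *H2-K1* took 9.84% of their summed counts in WT 1 (95% exact Clopper-Pearson interval 5.19% to 16.6%) and 9.03% in WT 2 (4.89% to 14.9%). It took 45.0% in KO 1 (37.8% to 52.4%) and 47.3% in KO 2 (39.6% to 55.2%). The intervals of both WT libraries lie below those of both KO libraries. They cover counting error only, since reads without molecular identifiers are not independent molecules. Transcripts of class I genes resemble each other: 8.11% of the 50-base stretches of the longest *H2-K1* transcript and 14.3% of those of *H2-D1* occur in another gene, and 0% and 4.64% of the 100-base stretches. At 50 bases the leading partner of *H2-K1* was *H2-D1* itself, which holds 6.52% of the *H2-K1* stretches. That of *H2-D1* was *H2-Q1* (7.40%). How the counting treated reads that fit more than a single gene is not given in the sources used here.

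The start regions of the pair are printed because the genes differ in their values while these sequences resemble each other. They come from the RefSeq promoter table (GRCm38.p6), run 5′ to 3′ on the gene's strand from 250 bases before to 50 bases after a RefSeq start, and lie at chr17:34000284-34000583 (*H2-K1*, minus strand) and chr17:35262844-35263143 (*H2-D1*, plus strand). Capitals mark matches, on either strand, to 6 letter patterns: GAAANNGAA and GAANNGAAA (spacings of the interferon-stimulated response element), TTCNNNGAA (the STAT element GAS), GGGNNTTCC (an NF-kB pattern), TGACG (the core of the cyclic AMP response element, also the X2 box of class I promoters) and CCAAT.
H2-K1: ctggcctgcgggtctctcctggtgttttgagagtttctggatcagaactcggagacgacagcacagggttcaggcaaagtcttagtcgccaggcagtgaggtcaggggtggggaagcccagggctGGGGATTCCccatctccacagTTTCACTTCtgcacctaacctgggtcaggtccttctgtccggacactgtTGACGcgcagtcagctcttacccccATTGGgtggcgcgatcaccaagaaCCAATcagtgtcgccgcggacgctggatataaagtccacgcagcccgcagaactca
H2-D1: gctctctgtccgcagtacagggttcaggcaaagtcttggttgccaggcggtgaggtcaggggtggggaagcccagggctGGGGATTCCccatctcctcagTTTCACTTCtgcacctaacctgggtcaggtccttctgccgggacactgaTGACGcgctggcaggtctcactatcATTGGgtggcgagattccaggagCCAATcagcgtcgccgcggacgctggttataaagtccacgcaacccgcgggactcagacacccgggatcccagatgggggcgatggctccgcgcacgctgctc

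The windows aligned over 253 bases with 87.8% identity. Both held the same matches in the same order: GGGNNTTCC, GAANNGAAA on the other strand, TGACG, and CCAAT once on each strand. They start at -125, -104, -55, -30 and -6 from the *H2-K1* start and at -171, -150, -101, -76 and -53 from the *H2-D1* start. Of 32851 RefSeq windows of this length, 5.82% hold GGGNNTTCC, 7.52% GAANNGAAA, 20.8% TGACG and 37.4% CCAAT, and no 2 matches in a member's window share a base. The *H2-K1* window holds 15 CpG dinucleotides and the *H2-D1* window 19, against a median of 7 over all windows. A match describes the letters and not the binding of a factor, and methylation data were not analysed here.

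*H2-T23* encodes Qa-1, a non-classical heavy chain that shows leader peptides of other class I molecules to natural killer cell receptors (chromosome 17, 36029773 to 36032855, minus strand). It had 23 and 35 counts in WT against 28 and 28 in KO, so the genotypes overlapped. Its level was 3.13 ± 0.406 CPM in WT and 3.19 ± 0.173 CPM in KO (SD, n = 2), with a log2 fold change of 0.02 ± 0.42 (adjusted p = 0.985) whose sign turned without WT 1, without KO 1 and with offsets for gene length and GC. Its RefSeq window has GAAANNGAA on the other strand at -123, a match that 8.56% of all windows have, and 5 CpG dinucleotides.

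*B2m* encodes beta-2 microglobulin, the light chain that every class I heavy chain needs (chromosome 2, 122147686 to 122153083, plus strand). It had 60 and 66 counts in WT against 67 and 117 in KO. These were 7.43 and 6.45 CPM against 7.93 and 12.8 CPM. Both KO libraries were above both WT libraries, but KO 1 only just, and the spread between the KO libraries (10.4 ± 3.46 CPM, SD, n = 2) was about as large as the difference from WT (6.94 ± 0.690 CPM). The log2 fold change was 0.59 ± 0.33 (adjusted p = 0.330), and 1 library decided much of it: it was 0.20 without KO 2 and 0.90 without KO 1.

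*Tap1* and *Tap2* encode the subunits of the peptide transporter, and both lie on the plus strand of chromosome 17, at 34187553 to 34197225 and at 34203527 to 34216321. *Tap2* had 5 and 2 counts in WT against 38 and 64 in KO, or 0.619 and 0.195 CPM against 4.50 and 7.02 CPM. Its log2 fold change was 3.85 ± 0.63 (adjusted p = 0.00746). The ratio of the summed counts, scaled to library size, was 15.2, with an exact 95% interval of 7.12 to 38.8 that covers counting error only. WT is so thinly counted that each WT library moved the value by over 1.5 times: the log2 fold change was 4.79 without WT 1 and 3.18 without WT 2, with an adjusted p under 0.05 both times.

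*Tap1* had 1 and 3 counts in WT against 11 and 22 in KO, or 0.124 and 0.293 CPM against 1.30 and 2.41 CPM. The genotypes did not overlap, and the WT values lie at or under the 3 counts that a library can tell from 0. The log2 fold change was 3.03 ± 0.79 (adjusted p = 0.0579, unadjusted p = 0.00494), and the ratio of the scaled sums was 8.61 (3.06 to 33.4, counting error only). It passed the threshold in 7 of 13 other fits, among them the fit without WT 2 (log2 fold change 3.75, adjusted p = 0.0396), and not without WT 1 (2.61, adjusted p = 0.0854).

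The start regions of *B2m* and *Tap1* are shown for comparison with the heavy chains, with capitals as above, at chr2:122147437-122147736 and chr17:34187306-34187605, both on the plus strand. The *Tap1* window shares 275 bases with that of *Psmb9*, which starts in the opposite direction, and the RefSeq table used here has no window for *Tap2* or *Nlrc5*.
B2m: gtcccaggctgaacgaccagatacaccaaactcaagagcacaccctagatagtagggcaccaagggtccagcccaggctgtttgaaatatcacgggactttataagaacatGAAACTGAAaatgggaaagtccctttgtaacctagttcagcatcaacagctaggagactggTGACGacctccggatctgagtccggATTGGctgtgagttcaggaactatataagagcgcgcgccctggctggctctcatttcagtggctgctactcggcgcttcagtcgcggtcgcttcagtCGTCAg
Tap1: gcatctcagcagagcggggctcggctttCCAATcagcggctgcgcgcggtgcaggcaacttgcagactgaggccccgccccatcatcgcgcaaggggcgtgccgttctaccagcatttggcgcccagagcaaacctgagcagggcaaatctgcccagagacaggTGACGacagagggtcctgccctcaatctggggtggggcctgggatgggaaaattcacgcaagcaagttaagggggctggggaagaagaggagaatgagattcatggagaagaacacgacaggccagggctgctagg

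The *B2m* window holds GAAANNGAA at -139, TGACG at -78 and 45 and CCAAT at -53. In the *Tap1* window only CCAAT (-222) and TGACG (-86) were matched. The windows have 14 and 15 CpG dinucleotides.

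*Tapbp* encodes tapasin (chromosome 17, 33915899 to 33929292, plus strand). It had 81 and 145 counts in WT against 122 and 162 in KO, or 10.0 and 14.2 CPM against 14.4 and 17.8 CPM. KO 1 and WT 2 were nearly level, and the log2 fold change was 0.41 ± 0.27 (adjusted p = 0.405, and 0.18 without WT 1). Exons of *Tapbp* overlap those of *Gm19412* on the opposite strand over 904 bases and those of *Zbtb22* over 149 bases on the same strand. *Gm19412* had 0 and 0 counts in WT against 5 and 0 in KO, and *Zbtb22* had 267, 345, 243 and 325 counts in WT 1, WT 2, KO 1 and KO 2, with a log2 fold change of -0.05. Exons of *Tap2* overlap 533 bases of *Gm15821* on the opposite strand, which had 1 and 0 counts in WT against 0 and 3 in KO. Whether counting used the strand is not given in the sources used here, so reads of such partners cannot be told apart.

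The immunoproteasome subunits were barely counted. *Psmb8*, the chymotrypsin-like subunit that replaces *Psmb5* (chromosome 17, 34197721 to 34201454, plus strand), had 2 and 3 counts in WT against 8 and 2 in KO. *Psmb9*, which replaces *Psmb6* (34181987 to 34187764, minus strand), had 0 and 0 counts in WT against 1 and 4 in KO. The scaled ratio for *Psmb8* was 2.09 (0.650 to 7.78, counting error only), an interval that includes 1, and no fold is given for *Psmb9*, whose KO mean (0.279 CPM) is under the level of 3 counts. Exons of *Tap1* and *Psmb9* overlap head to head over 212 bases on opposite strands, 3.87% of the exon length of *Tap1*.

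*Psmb10*, the remaining immunoproteasome subunit and a gene outside the members, had 64 and 111 counts in WT against 78 and 104 in KO. It makes up most of the immunoproteasome level. Summed per kb of exon, *Psmb8*, *Psmb9* and *Psmb10* were 4.67% and 5.11% of all 6 catalytic subunits in the WT libraries and 6.10% and 7.40% in the KO libraries, so that the genotypes did not overlap. The summed level of the 3 immunoproteasome subunits did overlap, at 4.72 and 6.45 CPM per kb in WT and 5.73 and 6.88 in KO, whereas that of *Psmb5*, *Psmb6* and *Psmb7* was lower in both KO libraries (88.2 and 86.1 CPM per kb) than in both WT libraries (96.3 and 119.8). The log2 ratio of the first sum to the second was -4.28 ± 0.0954 in WT and -3.80 ± 0.212 in KO (SD, n = 2). A two-sided exact permutation test of 2 libraries against 2 cannot go below p = 0.333, and no other test was made of this ratio.

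*Nlrc5* encodes the transactivator of class I genes (chromosome 8, 94434356 to 94527272, plus strand). It had 8 and 19 counts in WT against 16 and 6 in KO. The genotypes overlapped fully, with 0.990 and 1.86 CPM in WT and 1.90 and 0.658 CPM in KO. Its log2 fold change was -0.18 ± 0.70 (adjusted p = 0.911), and it was positive without WT 2 (0.34) and without KO 2 (0.40).

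Levels can be compared between genes only per length, here as CPM per kb of the union of exons. In WT the order was *B2m* (8.07 ± 0.802), *H2-D1* (5.12 ± 0.223), *Tapbp* (3.33 ± 0.808), *H2-T23* (1.08 ± 0.140), *H2-K1* (0.469 ± 0.0517), *Nlrc5* (0.168 ± 0.0721), *Tap2* (0.108 ± 0.0792), *Psmb8* (0.0800 ± 0.00954) and *Tap1* (0.0381 ± 0.0219; SD, n = 2), with *Psmb9* at 0. *Tap2* was within its spread of *Nlrc5*, of *Psmb8* and of *Tap1*, while *Nlrc5* was above *Psmb8* in both libraries. *Psmb8* and *Tap1*, with at most 3 counts in each WT library, could not be put in order at this depth. In KO the order was *B2m* (12.1 ± 4.03), *Tapbp* (4.44 ± 0.648), *H2-D1* (4.30 ± 0.732), *H2-K1* (3.23 ± 0.339), *Tap2* (1.52 ± 0.471), *H2-T23* (1.11 ± 0.0597), *Tap1* (0.339 ± 0.143), *Psmb8* (0.173 ± 0.152), *Nlrc5* (0.150 ± 0.103) and *Psmb9* (0.0761 ± 0.0619). *Tapbp* and *H2-D1* did not differ beyond their spread there, nor did *Tap2* and *H2-T23*, nor *Tap1* and *Psmb8*, nor *Psmb8*, *Nlrc5* and *Psmb9*. *Tap1* was above *Nlrc5* in both KO libraries, in KO 1 by little (0.238 against 0.223). *H2-K1* stood below *H2-T23* in both WT libraries and above it in both KO libraries. So did *Tap2*, but in KO 1 only by little (1.19 against 1.15), so that its order with *H2-T23* in KO is not settled.

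**Figure D2:**
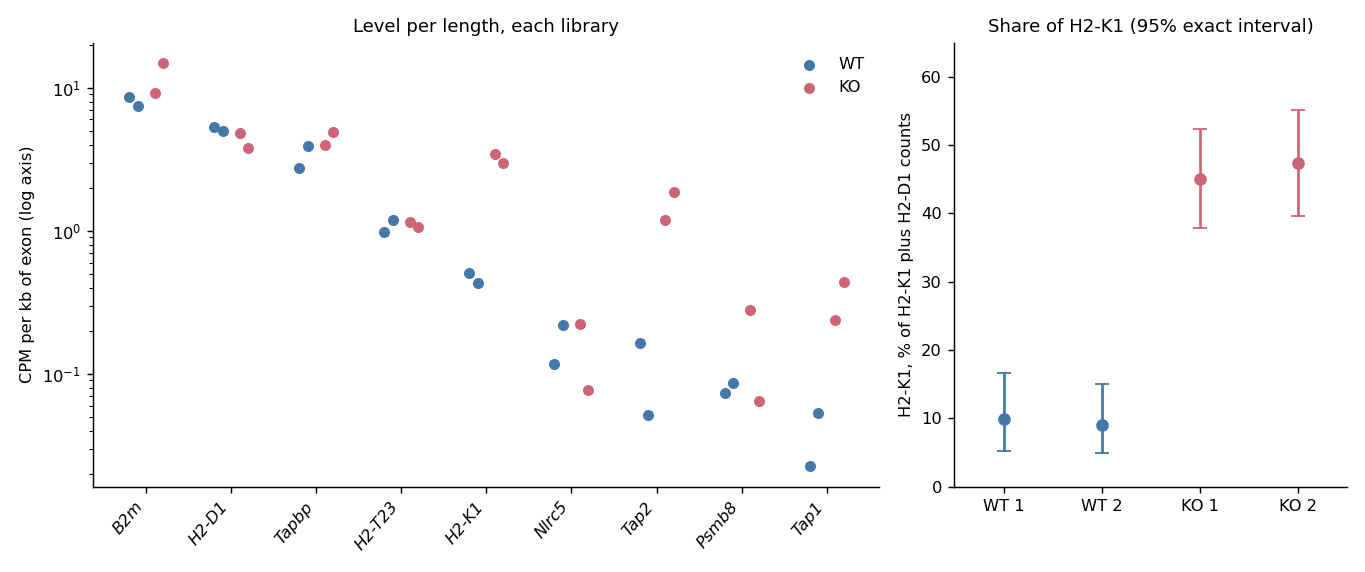
Left, level per kb of exon (log axis) of 9 members in each WT (blue) and KO (red) library, ordered by the WT mean, without *Psmb9*, which is 0 in WT. Right, *H2-K1* as a percentage of the summed *H2-K1* and *H2-D1* counts in each library with exact 95% intervals, at 9.03% to 9.84% in WT and 45.0% to 47.3% in KO.

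The wider route was followed in 94 other genes in 7 lists, of which 61 were tested, 6 were higher and 0 were lower (7.33% and 0.57% of all tested genes). Their median log2 fold change was 0.22, and 23 had an unadjusted p under 0.05, as had 22.7% of all tested genes. Some of them passed the filter only through their KO libraries, so these counts are not read as evidence about the route. DESeq2 and limma-voom also called 6 of them higher, and DESeq2 called 1 lower, the transcription factor gene *Creb1* (-0.67, adjusted p = 0.0397), which edgeR placed at -0.66 with an adjusted p of 0.139. Among 19 further class I heavy chains and class I-like genes 6 were tested, and *Fcgrt*, the neonatal Fc receptor, which also pairs with B2M but carries no peptide, was the only higher gene. It had 8 and 5 counts in WT against 78 and 53 in KO (log2 fold change 3.36 ± 0.52, adjusted p = 0.00552). *Mr1*, which shows vitamin B metabolites to T cells, had 4 and 0 counts in WT against 24 and 21 in KO (3.44 ± 0.96, adjusted p = 0.0743), and both *Fcgrt* and *Mr1* passed the filter only through the KO libraries. *Mr1* passed the threshold in 6 of 13 other fits (adjusted p from 0.000319 to 0.0295), the lowest without WT 1, when the lone WT library had 0 counts, and its log2 fold change fell to 2.33 without WT 2 (adjusted p = 0.0537). *H2-T22*, a ligand of gamma delta T cells, had 10 and 22 counts in WT against 41 and 40 in KO (1.42 ± 0.46, adjusted p = 0.117). It fell just under the filter's level in WT 1 and so also needed its KO libraries to pass. It passed in 2 of 14 other fits, among them that without WT 2 (1.88, adjusted p = 0.0101), and 58.6% of its 50-base stretches occur in another gene. *H2-T24* (0.33), *H2-M5* (0.06) and the lipid-presenting *Cd1d1* (-0.36) had adjusted p-values from 0.315 to 0.937. The other 13 were not tested, among them *H2-Q6* with 0, 0, 8 and 3 counts and *H2-M3* with 0, 0, 6 and 2 counts in WT 1, WT 2, KO 1 and KO 2, but also *H2-Q4* with 3, 8, 3 and 8, *H2-Q7* with 1, 8, 3 and 4 and *H2-K2* with 0, 8, 9 and 3 counts, whose genotypes overlapped.

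None of 7 other proteasome genes passed edgeR's test, in either direction (7.33% of all tested genes were higher and 0.57% lower). Of the 7, 0 had an unadjusted p under 0.05 (22.7% of all tested genes), and DESeq2 and limma-voom called 0. Their median log2 fold change was -0.30. It was -0.45 for *Psmb5*, -0.28 for *Psmb6* and -0.30 for *Psmb7*, the constitutive catalytic subunits, and -0.35, -0.18 and -0.30 for *Psme1*, *Psme2* and *Psme3*, which encode PA28 activators. *Psmb10* was at 0.14. Peptide loading and trimming gave 0 calls among 10 genes as well (1 with an unadjusted p under 0.05, and 0 by DESeq2 and limma-voom), with a median of -0.03. The largest values were those of *Erap1*, the trimming peptidase of the endoplasmic reticulum (0.92 ± 0.58, adjusted p = 0.386; 41 and 13 counts in WT, 50 and 53 in KO), and *Tapbpl*, a tapasin-like editor (0.74 ± 0.47, adjusted p = 0.389). The chaperones *Canx* (-0.45), *Calr* (-0.24), *Pdia3* (-0.04), *Hspa5* (0.09) and *Hsp90b1* (-0.14), the translocon gene *Sec61a1* (-0.02) and the proteases *Sppl2a* (-0.29) and *Lnpep* (-0.01) completed the list.

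Of 14 genes of transcription control, all tested, 2 were higher and 0 lower (7.33% and 0.57% of all tested genes), and 6 had an unadjusted p under 0.05 (22.7% of all tested genes), with a median of 0.29. *Ciita*, the transactivator of MHC class II, had 31 and 39 counts in WT against 84 and 93 in KO (1.40 ± 0.30, adjusted p = 0.0272), a call that was lost without KO 1 (1.43, adjusted p = 0.10) and without KO 2 (1.38, adjusted p = 0.140), where the difference was about as large. Its exons overlap *Dexi* on the opposite strand over 329 bases, 3.45% of their length. *Irf2*, an interferon regulatory factor that competes with IRF1, had 60 and 66 counts in WT against 146 and 165 in KO (1.35 ± 0.25, adjusted p = 0.0132). *Irf1*, an activator of class I promoters, had 14 and 28 counts in WT against 52 and 51 in KO (1.38 ± 0.41, adjusted p = 0.0904). Of the class II genes that CIITA is known for, *H2-Ab1* had 0 and 6 counts in WT against 9 and 9 in KO, with a scaled ratio of 3.13 (1.19 to 9.63, counting error only). *H2-Aa* had 0 counts in every library, *H2-Eb1* had 1 count in all, and *Cd74* had 7 and 3 counts in WT against 10 and 3 in KO. All of these were too low to be tested. Only *H2-DMa* of the class II list was tested, with 44 and 65 counts in WT against 45 and 57 in KO (-0.03 ± 0.32, adjusted p = 0.975).

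Interferon receptors and signalling genes gave 0 calls among 10 tested genes by edgeR (3 with an unadjusted p under 0.05), DESeq2 and limma-voom, with a median of 0.04. The receptor subunits *Ifngr1* (0.65), *Ifngr2* (-0.65), *Ifnar1* (0.06) and *Ifnar2* (0.43) had adjusted p-values between 0.062 and 0.840. Of 26 interferon-stimulated genes 13 were tested, and 3 were higher and 0 lower (7.33% and 0.57% of all tested genes), while 10 had an unadjusted p under 0.05 (22.7% of all tested genes). *Ifi27*, an interferon-inducible membrane protein gene, had 7 and 7 counts in WT against 63 and 62 in KO (3.19 ± 0.44, adjusted p = 0.00312). *Ifit3*, an RNA-binding antiviral gene, had 0 and 0 counts in WT against 14 and 12 in KO, at least 4.48-fold higher when each WT library is set at 3 counts (adjusted p = 0.0216). *Rsad2*, which encodes viperin, had 0 and 0 counts in WT against 13 and 17 in KO, at least 5.12-fold higher on the same floor (adjusted p = 0.0169). All 13 tested genes had a positive log2 fold change, with a median of 1.77 that the genes at their bounds leave as it is. *Ifi27*, *Ifit3*, *Rsad2*, *Ifitm3*, *Rtp4* and *Parp14* passed the filter only through their KO libraries, as *Tap1* and *Tap2* did. *Gbp7*, *Irgm1*, *Ifih1* and *Ifi35* did not reach the filter's level in both WT libraries and so also needed their KO libraries to pass. The counts and the median are therefore not read as evidence about the list. Summed over all 26, the list stood at 29.6 and 27.9 CPM in WT and at 65.6 and 60.0 CPM in KO. *Isg15* with 3, 5, 7 and 7 counts and *Oasl2* with 1, 13, 5 and 2 counts in WT 1, WT 2, KO 1 and KO 2 are among the 13 that were not tested. Of 7 class I receptors and their partners only *Pirb*, a class I receptor studied at synapses, was tested (0.89 ± 0.69, adjusted p = 0.486), and it too passed the filter only through its KO libraries.

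**Figure D3:**
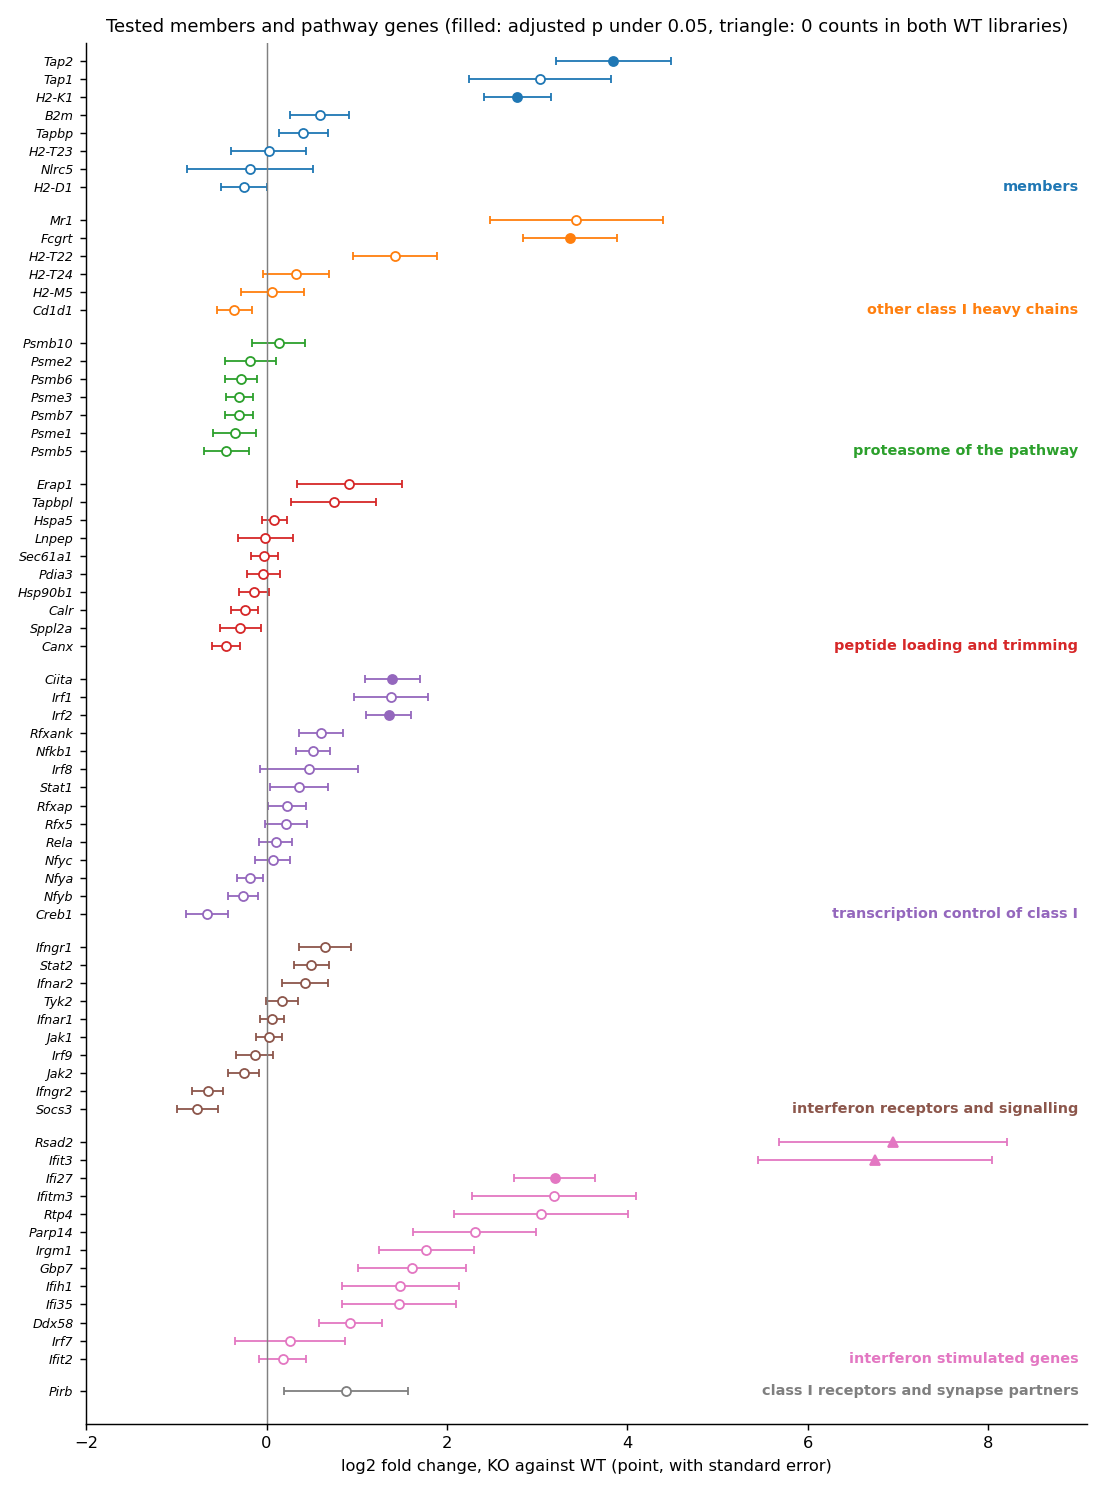
Log2 fold change of KO against WT (horizontal axis) with its standard error for the 8 tested members and the 61 other tested genes, grouped by list. Filled symbols passed an adjusted p under 0.05, and triangles mark *Rsad2* and *Ifit3*, whose fitted value depends on the fit because both WT libraries had 0 counts. Filled points are *Tap2* and *H2-K1* among the members and *Fcgrt*, *Ciita*, *Irf2* and *Ifi27* elsewhere.

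The 8 members on chromosome 17 lie in the MHC region, between 33915899 and 36032855, with 203 other annotated genes. Of these 78 were tested, and 4 were higher and 0 lower, against 7.33% and 0.57% of all tested genes, and DESeq2 and limma-voom gave the same counts. Their median log2 fold change was -0.02, and 10 had an unadjusted p under 0.05, against 22.7% of all tested genes. *Col11a2*, a fibrillar collagen gene, had 335 and 512 counts in WT against 1194 and 1241 in KO (1.60 ± 0.16, adjusted p = 0.000509). *C4b*, a complement component that astrocytes also make, had 0 and 0 counts in WT against 64 and 90 in KO, at least 26.3-fold higher on the floor of 3 counts per library (adjusted p = 0.000756). *Hspa1b* (3.56 ± 0.53, adjusted p = 0.00449) and *Hspa1a* (3.31 ± 0.61, adjusted p = 0.0127) are near-identical heat shock genes, so how their reads divide is uncertain, as it is for *C4b* and its neighbouring copy. *Hspa1b* had 3 and 6 counts in WT against 57 and 46 in KO, and *Hspa1a* had 4 and 3 against 38 and 31. *C4b*, *Hspa1b* and *Hspa1a* passed the filter only through their KO libraries, so the count of higher genes is not read as evidence about the region. *H2-K1* and *Tap2*, which passed the test, start 80.1 and 287.6 kb after *Tapbp*. *Tap1*, *H2-D1* and *H2-T23*, which like *Tapbp* did not pass it, start 271.7, 1347 and 2114 kb after *Tapbp*.

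**Figure D4:**
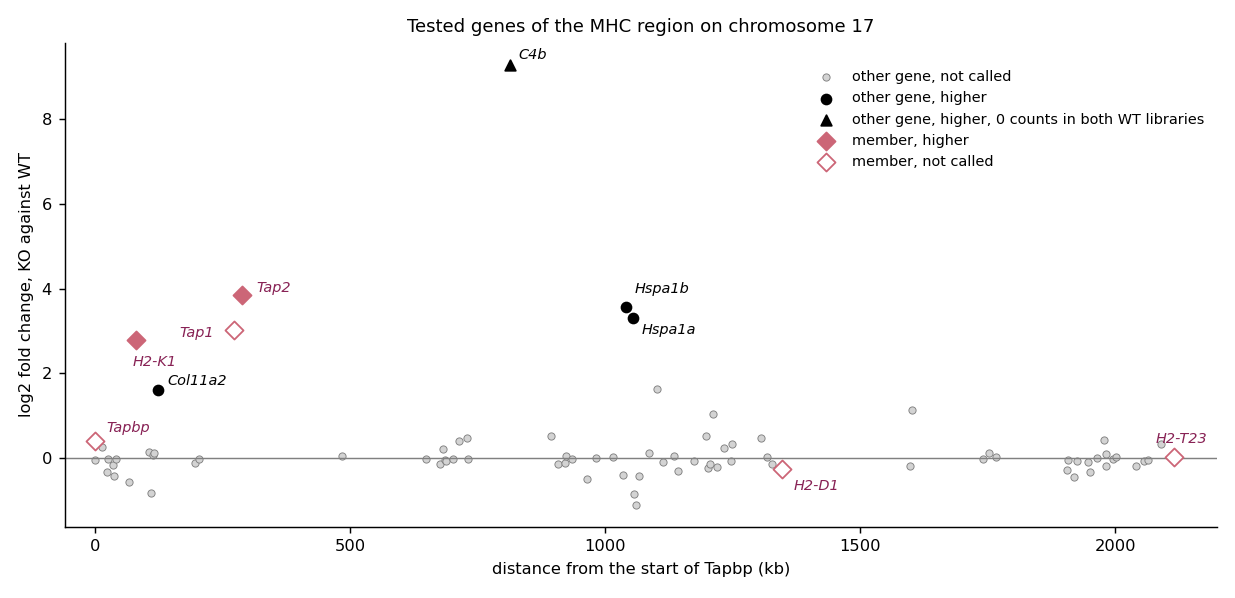
Log2 fold change of KO against WT (vertical axis) of tested genes of the MHC region against the distance from the start of *Tapbp* in kb (horizontal axis), with members as diamonds and other genes as circles. Most of the 78 other genes lie near 0, around a median of -0.02, and the 4 higher ones lie among genes that were not called, with *C4b* as a triangle because both WT libraries had 0 counts.

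In a bulk sample a shift in the number of cells of a type cannot be told apart from a shift in RNA per cell, and several marker lists moved with the members. Over all tested genes 7.33% were higher and 0.57% lower. Astrocyte markers moved most: 10 of 10 were higher, and the list summed to 276 and 261 CPM in WT and 3849 and 3653 CPM in KO. *Gfap* had 0 and 0 counts in WT against 149 and 198 in KO. Mural cell markers were higher in 6 of 8 genes (304 and 324 CPM in WT, 695 and 752 in KO), and oligodendrocyte lineage markers in 4 of 8 (1120 and 1178 CPM, 1712 and 1707 CPM). *Cspg4*, which was not called (adjusted p = 0.119), carried most of the mural sum in WT, at 251 and 263 CPM. It stood at 319 and 377 CPM in KO. *Gfap* and *Aqp4* of the astrocyte list and *Acta2* and *Anpep* of the mural list passed the filter only through their KO libraries, so the counts of these lists are a description.

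Microglia and macrophages, which carry class I, were read through 12 markers, of which 10 were tested. *Csf1r*, a growth factor receptor gene, was higher (log2 fold change 1.03, adjusted p = 0.0474). The list summed to 38.6 and 48.1 CPM in WT and to 81.3 and 80.6 CPM in KO. Its genes were not alike, and of the 10 tested 7 had a positive and 3 a negative log2 fold change. *P2ry12* had 50 and 49 counts in WT against 46 and 44 in KO, and *Tyrobp* had 11 and 18 against 10 and 11. *Aif1* had 2 and 3 in each genotype. *Cx3cr1* had 37 and 82 against 104 and 131, *C1qa* 22 and 40 against 49 and 59, and *C1qb* 23 and 17 against 71 and 54. *Tmem119*, which passed the filter only through its KO libraries, had 4 and 7 against 13 and 19. Of 10 endothelial markers 7 were tested and 1, *Slco1c1*, a thyroid hormone transporter gene that astrocytes also use, was higher, with 11 and 8 counts in WT against 1044 and 1105 in KO. It carried most of the list's sum (22.4 and 22.3 CPM in WT, 149 and 149 in KO). The other markers differed in direction, and 5 of the 7 tested had a positive log2 fold change. *Cldn5* had 18 and 32 counts in WT against 7 and 10 in KO and *Cdh5* had 11 and 10 against 9 and 8, whereas *Flt1* had 23 and 34 against 53 and 65, *Esam* 29 and 53 against 59 and 68, and *Tek* 13 and 6 against 29 and 15. *Ly6a* and *Ly6c1* had 0 and 0 counts in WT against 13 and 5 and against 7 and 7 in KO. T and NK cell markers were all too low to be tested, with *Cd3e*, *Cd3d* and *Gzma* at 0 in every library.

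The neuronal list was lower in 3 of 10 genes, against 0.57% of all tested genes, and 9 of the 10 had a negative log2 fold change (6366 and 5754 CPM in WT, 4318 and 4250 CPM in KO), and 0 of 10 GABAergic and POA lineage genes passed the test (1624 and 1526 CPM in WT, 1279 and 1404 CPM in KO). The 6 choroid plexus markers summed to 47.2 and 61.2 CPM in WT and to 4.74 and 5.92 CPM in KO, and of the 3 that were tested 1, *Ttr*, was lower (log2 fold change -5.53, adjusted p = 1.77e-05). *Ttr* carried most of the sum in WT (40.7 and 55.1 CPM), and *Kl* had 20 and 32 counts in WT against 22 and 35 in KO. MHC class II genes summed to 6.31 and 7.43 CPM in WT and 8.64 and 7.57 CPM in KO. *H2-DMa* carried most of this sum, at 5.44 and 6.35 CPM in WT and 5.33 and 6.25 CPM in KO. Cells were sorted for tdTomato of the *Hmx3-Cre* lineage, a gate that leaves out cells without the reporter. The part of astrocytes, mural cells, microglia or any other cell type in the values of *H2-K1*, *Tap1* and *Tap2* was not tested.

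**Figure D5:**
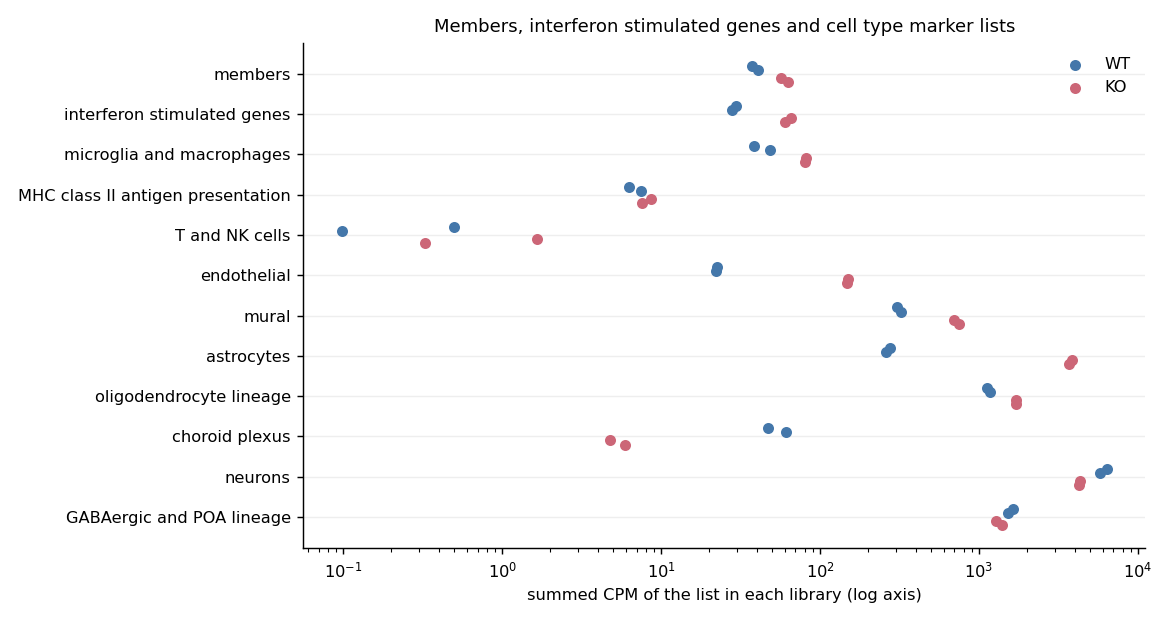
Summed CPM (log axis) of the 10 members, the interferon-stimulated genes and 10 marker lists in each WT (blue) and KO (red) library. The members stand at 37.4 and 40.7 CPM in WT and 57.1 and 63.0 CPM in KO, beside astrocyte markers at 276 and 261 against 3849 and 3653 CPM.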

How the data were processed

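RNA of FACS-enriched tdTomato-positive cells was sequenced in 2 *Dnmt1* WT libraries and 2 from *Dnmt1* KO embryos. The deposited values were raw counts of reads on Ensembl genes, not normalized by the authors. Their processing notes at GEO name CASAVA 1.8.2, STAR 2.5.2a, featureCounts 1.5.0-p1 and the builds mm10 and GRCm38. Strand setting, multimapping reads and annotation release are not given in the sources used here. Genotypes and replicate numbers came from the labels.

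Of 55573 identifiers, 55480 matched GENCODE M21 (GRCm38). edgeR's expression filter left 16832 genes, which were compared with TMM and the quasi-likelihood test (R 4.3.3, edgeR 4.0.16, limma 3.58.1), genotype as the only term and Benjamini-Hochberg adjustment. Genes with an adjusted p under 0.05 were called. Standard errors were derived from the test statistic. The procedure was tested on simulated data. Alternatives were DESeq2 1.42.0, limma-voom, other scalings and filters, a replicate block, gene length and GC offsets, and each library left out. RefSeq promoter windows (GRCm38.p6) were read for 8 of 10 members, and identity came from a pairwise alignment with Biopython.

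The named genes were the 10 members, *Dnmt1*, up to 5 called genes per pathway list, tested heavy chain, proteasome and loading genes, up to 3 called genes per direction in the MHC region and up to 3 genes per marker list. The fourth called gene of the MHC region, genes not called or not tested in other lists, overlapping genes and marker genes beyond 3 per list were named after their values were seen. The members, lists, motifs and named genes were chosen with earlier results of these data known. The result of 1 marker gene is not reported here. MeDIP data were not analysed here.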

Additional observations from a re-analysis of the deposited data

How the results depend on the processing

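*H2-K1* was higher in KO in all 14 other fits (log2 fold change 2.65 to 2.89) and *Tap2* in the 13 that could test it. *Tap1* passed the threshold in 7 of 13, with library size only, upper quartile scaling, no filter, the replicate block, the gene length and GC offsets, both together and without WT 2. Members called higher numbered 1 under a minimum of 10 counts in each library, where *Tap1*, *Tap2* and *Nlrc5* could not be tested, and 2 to 3 when a library was left out. The members' median was 0.83 with no filter (10 members) and 0.33 to 0.73 with a library left out. *H2-T23* turned negative with the gene length and GC offsets (-0.0259), with the replicate block and these offsets (-0.0283), and with a library left out ranged from -0.11 to 0.155, as did *Nlrc5* from -1.10 to 0.40 and *H2-T24* from -0.0309 to 0.751.

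Of the 6 pathway genes higher and 0 lower, library size only gave 11 higher, no filter 12 and 2 lower, at least 10 counts 2 higher, gene length and GC offsets 12 and 4 lower, the replicate block with offsets 18 and 5 lower, DESeq2 1 lower, a threshold of 0.1 11 and 2 lower, a threshold of 0.01 2 higher, and leaving out a library 3 to 18 higher and 0 to 9 lower. MHC region calls (4 higher, 0 lower) numbered 1 higher with at least 10 counts and 1 lower with no filter, 3 lower with offsets, 6 lower with the replicate block and offsets, and 3 to 8 higher and 0 to 7 lower with a library left out. The causes were not tested. In fits with a library left out, the lone library is assumed to vary like the other genotype, and a gene's own spread hardly enters its p-value. Over all genes, 92.8% of calls were higher, 75.8% with no filter, 72.4% with the replicate block, 67.4% with the offsets, 62.1% with both, 66.5% without WT 1 and 48.2% without WT 2. Library size only moved the median of all genes from -0.03 to 0.08.

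The replicate numbers pair pools of different embryos and have no other source than the labels. Same-numbered libraries deviated together with a correlation of 0.137 across genes. The replicate block gave 3 members higher (*Tap1*, adjusted p = 0.0441), 8 pathway genes higher and 2 lower, 6 MHC region genes higher, and 1625 higher and 619 lower genes in place of 1233 and 96. Over the longest transcript in place of the union of exons, levels per kb were 6.28 in WT and 5.28 in KO for *H2-D1*, 0.735 and 5.06 for *H2-K1*, and the log2 ratio of immunoproteasome to constitutive subunits was -4.64 in WT and -4.15 in KO. Depth limits *Tap1*, *Psmb8* and *Psmb9*, which had at most 3 counts in each WT library.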
